A study of Homo sapiens with 4 samples.

Results

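The Fc receptor genes of myeloid cells were followed across 4 cultured lines of human acute myeloid leukemia. The group holds 9 genes chosen by symbol, FCGR1A, FCGR1B, FCGR2A, FCGR2B, FCGR3A, FCGR3B, FCER1G, FCGRT and FCAR, out of the 21865 symbols in the deposited tables. All 9 were found, each as a single entry, and 6 of them are counted as measured, since some line showed 1 RPKM or more (12976 genes in all were). RPKM gives sequenced bases on a gene relative to gene length and library size. Both THP-1 and MonoMac-1, of monocytic type, bear the fusion gene MLL-AF9, HL60 is a myeloblastic to promyelocytic line and KG1a an immature line that expresses CD34. These descriptions are general knowledge of the lines and are not in the labels. All 4 were grown in RPMI-based medium with fetal bovine serum and antibiotics, and the labels name no treatment. No label explains the suffix "tr" that follows THP-1 in its title. Each line gave 1 library, so no level has a replicate check.

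Fc receptors bind the constant part of antibodies and link antibody-coated particles to the cells that engulf or kill them. The activating receptors signal through tyrosine motifs called ITAMs, carried either in their own tail or on the adaptor encoded by FCER1G, and Src-family kinases and SYK act on these motifs. An inhibitory receptor, FCGR2B, carries the opposite kind of motif and recruits a lipid phosphatase. The neonatal receptor FCGRT stands apart: it pairs with beta-2 microglobulin inside the cell and returns IgG and albumin to the surface instead of degrading them.

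Between 6.04 gigabases (THP-1) and 13.6 (MonoMac-1) fell on genes. In MonoMac-1 10.0% of low sums were multiples of 100 bases, against 41.7% to 47.0% elsewhere, and the part of this in the results was not tested. A counting interval (95%, Poisson, with 200 bases taken as 1 fragment) covers counting error only. The monocyte and macrophage markers CD14, LYZ, CSF1R, CD68, ITGAM, CD163, MS4A7 and CD36 summed to 751 RPKM in THP-1 cells and 5098 in MonoMac-1, against 19.3 in HL60 cells and 7.63 in KG1a, and CD14 itself reached no more than 4.13 RPKM (in MonoMac-1). LYZ made up 510 of that sum in THP-1 cells and 4837 in MonoMac-1, while CSF1R was at 31.1 RPKM in THP-1 cells and 2.31 in MonoMac-1, and ITGAM was at 1.75 RPKM in MonoMac-1 and 3 in KG1a. Of the neutrophil markers, MPO, the myeloperoxidase of granulocyte precursors, was highest in HL60 at 4610 RPKM, whereas ELANE, the neutrophil elastase, stood at 1042 RPKM in THP-1 cells and 1313 in MonoMac-1, against 76.6 in HL60 cells. CD34 stood at 494 RPKM in KG1a. The B cell markers MS4A1, CD22 and PAX5 stayed under 1 RPKM in all 4 lines, and CD79A reached 6.36 RPKM in HL60 cells. Of the 6 NK cell markers, NKG7 was present at 159 RPKM in MonoMac-1 and 123 in KG1a, while KLRD1 did not exceed 0.00188 RPKM in any line. In HL60, 22 genes that were abundant in KG1a and under 1 RPKM in THP-1 and MonoMac-1 lay at a median of 2.73% of their KG1a level. Taking that share off HL60 moved FCER1G there to 21.8 RPKM and FCGR2A to 9.19 RPKM, and left FCGR1A at 8.14, FCAR at 10.4 and FCGRT at 0.325 RPKM.

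FCGR1A, which encodes the high-affinity IgG receptor CD64 of monocytes and macrophages (chromosome 1, 149755559 to 149764074 in hg19), was present in 3 lines. It stood at 18.9 RPKM in THP-1 cells (95% interval from counting 17.9 to 20.0) and 25 in MonoMac-1 (24.2 to 25.7), against 8.14 in HL60 cells (7.60 to 8.72) and 0.00395 in KG1a. The KG1a value came from 100 bases, less than the 3 fragments taken as the floor (0.0237 RPKM). MonoMac-1 was 1.32 times THP-1 and 3.06 times HL60, and the intervals of these 3 lines do not overlap. In these bulk cultures, fewer cells with the transcript and less RNA per cell cannot be told apart. The FCGR1A entry lies inside the much longer entry of the histone gene HIST2H2BF, which was at 2.09 RPKM in THP-1 cells and 1.49 in MonoMac-1, against 0.0960 in HL60 cells and 0.00400 in KG1a. Whether reads were exchanged between these entries was not tested.

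FCGR1B and FCGR1C are similar copies of FCGR1A, now classed as pseudogenes, and reads may be shared among the 3 entries. The level of FCGR1B (chromosome 1, 120926908 to 120935944) was 7.91 RPKM in THP-1 cells and 4.08 in MonoMac-1, against 4.35 in HL60 cells and 0.00606 in KG1a. The MonoMac-1 interval (3.67 to 4.52) overlaps that of HL60 (3.82 to 4.94), so these lines are not separable for FCGR1B, and THP-1 (7.05 to 8.84) lies above both. The order of the lines thus differed between the copies: FCGR1A was highest in MonoMac-1 and FCGR1B in THP-1 cells. The ratio of FCGR1B to FCGR1A was 0.417 in THP-1 cells (0.369 to 0.472), 0.163 in MonoMac-1 (0.147 to 0.182) and 0.534 in HL60 cells (0.463 to 0.617), lowest in MonoMac-1. FCGR1C was lower, at 1.59 RPKM in THP-1 cells and 0.985 in MonoMac-1, against 1.32 in HL60 cells, and was listed at 0 in KG1a. Over the summed length of FCGR1A and FCGR1B, the level was 15.1 RPKM in THP-1 cells and 17.6 in MonoMac-1, against 6.81 in HL60 cells and 0.00469 in KG1a, which keeps the order of FCGR1A.

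**Figure D1:**
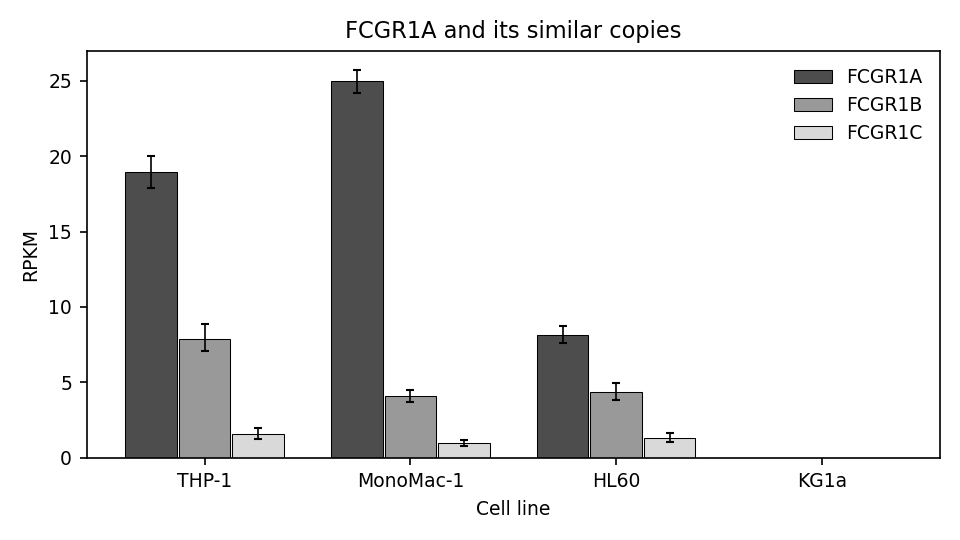
Levels (RPKM, linear axis from 0) of FCGR1A and its similar copies FCGR1B and FCGR1C in each line. Bars are single libraries and error bars are 95% counting intervals. FCGR1A stood at 18.9 RPKM in THP-1 cells, 25 in MonoMac-1 and 8.14 in HL60 cells, while FCGR1B was highest in THP-1 cells (7.91 RPKM), and the KG1a values are too small to be seen.

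FCGR2A encodes CD32A, a low-affinity IgG receptor with an ITAM in its own tail. The gene (chromosome 1, 161475205 to 161489360) was the only IgG receptor of the group above 1 RPKM in all 4 lines. It stood at 26.7 RPKM in THP-1 cells (25.6 to 27.8) and 9.53 in MonoMac-1 (9.09 to 9.97), against 9.33 in HL60 cells (8.79 to 9.89) and 4.89 in KG1a (4.54 to 5.26). THP-1 was highest at 2.80 times MonoMac-1, MonoMac-1 and HL60 overlapped within counting error, and KG1a was lowest. The ratio of FCGR1A to FCGR2A was 0.709 in THP-1 cells (0.663 to 0.759), 2.62 in MonoMac-1 (2.48 to 2.77) and 0.873 in HL60 cells (0.798 to 0.955), so MonoMac-1 held more FCGR1A than FCGR2A per length and the other lines held less.

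FCGR2B, the inhibitory IgG receptor CD32B (chromosome 1, 161632905 to 161648444), stayed under 1 RPKM throughout. It stood at 0.160 RPKM in THP-1 cells (0.0827 to 0.279) and 0.205 in MonoMac-1 (0.143 to 0.286), against 0.331 in HL60 cells (0.231 to 0.460) and 0.0227 in KG1a (0.00469 to 0.0665). The intervals of THP-1, MonoMac-1 and HL60 overlap, and the KG1a value rested on 3 fragments. The FCGR2B level was 0.599% of that of FCGR2A in THP-1 cells, 2.15% in MonoMac-1, 3.55% in HL60 cells and 0.465% in KG1a. These genes are close copies of each other and of FCGR2C (0.0963 RPKM in THP-1 cells and 0.0289 in MonoMac-1, against 0.184 in HL60 cells and 0.00786 in KG1a), and whether reads of one were counted for another was not tested. Taken over the summed length of FCGR2A, FCGR2B and FCGR2C, the level was 10.7 RPKM in THP-1 cells and 3.87 in MonoMac-1, against 3.88 in HL60 cells and 1.96 in KG1a. FCGR2A gave most of the summed bases, 451070 of 454484 in THP-1 cells and 223205 of 232986 in HL60 cells. The order of THP-1 first and KG1a last in the sum is therefore that of FCGR2A itself and no check on shared reads.

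The upstream sequences of FCGR1A and FCGR2A are shown because they hold a stretch in common, and that of FCGRT because FCGRT parted the monocytic lines from the others most widely. They are RefSeq sequences (GRCh38.p14, plus strand, 250 bases ending just before the annotated start, a different build from the hg19 coordinates of the tables). Capitals mark GAGGAA, the core bound by the myeloid factor PU.1, on either strand, and TTCNNNGAA, the interferon-gamma activation site.
FCGR1A, chr1:149782444-149782693: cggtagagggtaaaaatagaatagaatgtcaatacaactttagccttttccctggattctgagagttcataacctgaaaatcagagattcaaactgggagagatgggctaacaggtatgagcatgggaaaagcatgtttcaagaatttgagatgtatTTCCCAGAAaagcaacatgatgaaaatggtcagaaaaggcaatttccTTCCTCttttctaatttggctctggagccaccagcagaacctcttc
FCGR2A, chr1:161505207-161505456: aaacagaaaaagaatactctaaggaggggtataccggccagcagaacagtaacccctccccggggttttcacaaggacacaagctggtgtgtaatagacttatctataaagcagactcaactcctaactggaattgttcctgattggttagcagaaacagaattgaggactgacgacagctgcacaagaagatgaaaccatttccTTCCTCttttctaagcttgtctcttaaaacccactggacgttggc
FCGRT, chr19:49512411-49512660: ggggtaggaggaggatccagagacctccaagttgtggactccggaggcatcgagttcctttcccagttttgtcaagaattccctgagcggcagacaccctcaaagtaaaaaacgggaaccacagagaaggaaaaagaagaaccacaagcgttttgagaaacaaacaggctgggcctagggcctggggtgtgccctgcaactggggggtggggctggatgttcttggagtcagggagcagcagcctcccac

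FCGR1A and FCGR2A shared a stretch of 20 bases, atttccTTCCTCttttctaa, which begins 52 bases before the start of FCGR1A and 51 before that of FCGR2A. It was sought as the longest stretch common to these 2 windows, so its presence in both was fixed by the search. Of 35116 RefSeq windows of this length, read in the direction of the gene, no others held it whole. The opposite strand was not searched for this stretch. Whether other pairs of windows share stretches as long was not tested. The stretch contains the PU.1 core on the minus strand. GAGGAA occurred in 23.6% of all windows on either strand, and TTCNNNGAA in 6.57%. TTCNNNGAA began 93 bases before the FCGR1A start, and neither of these motifs occurred in the FCGRT window. Over the member windows GAGGAA occurred in 3 of 14, near its share of all windows, and TTCNNNGAA in 2 of 14. FCGR2B, under 1 RPKM in every line, held 2 matches of each in 1 window, more than FCGR1A or FCGR2A. Also searched on both strands were the interferon response element (3.02% of all windows) and TTNNGNAA, a C/EBP core (33.2%). The element occurred in 4 of 14 member windows, all of FCGR2B, FCGR3A or FCGR3B, and TTNNGNAA in 6 of 14. The FCGR3B matches of the element are the same site in overlapping windows. Matches of different motifs were counted separately even where they overlapped. TTNNGNAA began 98 bases before the FCGRT start and 184 before that of FCGR2A. In the 3 windows printed above, the interferon response element did not occur. TTNNGNAA did not occur in the FCGR1A window. Windows were found for 7 of the 9 genes (14 windows, since several genes have more than 1 start), and not for FCGR1B and FCAR. A match describes these letters and is not a measured binding site.

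FCGR3A, the CD16A receptor of NK cells and of a subset of monocytes, and FCGR3B, the CD16B receptor of neutrophils, stood near or at 0. The level of FCGR3A (chromosome 1, 161511551 to 161520413) was 0.0201 RPKM in THP-1 cells and 0.138 in MonoMac-1, against 0.00944 in HL60 cells, and was listed at 0 in KG1a. The MonoMac-1 value rested on 23.4 fragments (0.0882 to 0.207), that of THP-1 on 1.5 and that of HL60 on 1. MonoMac-1 thus held more FCGR3A than the other lines, at a level far under 1 RPKM. The 6 NK cell markers summed to 16.9 RPKM in THP-1 cells and 172 in MonoMac-1, against 19.3 in HL60 cells and 154 in KG1a, mostly NKG7, and their part in this was not tested. FCGR3B (chromosome 1, 161592988 to 161601158) was listed at 0 in all 4 lines. These genes are near-identical copies, so a read that fits both may have been dropped or given to either, and a value of 0 does not show that the transcript was absent.

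FCAR, which encodes the IgA receptor CD89 of granulocytes and monocytes (chromosome 19, 55385549 to 55401839), was above 1 RPKM in HL60 alone. It stood at 0.259 RPKM in THP-1 cells (0.162 to 0.392) and 0.368 in MonoMac-1 (0.287 to 0.464), against 10.4 in HL60 cells (9.87 to 11), and was listed at 0 in KG1a, where 3 fragments would have been 0.0201 RPKM. HL60 was 40.3 times THP-1 and 28.4 times MonoMac-1, whose intervals overlap. On RPKM + 1, HL60 was at least 4 times above each of the other 3 lines for FCAR, a rule that 0.455% of all measured genes met in HL60 cells. The other 5 measured Fc receptor genes did not meet it there. The 6 neutrophil markers summed to 1162 RPKM in THP-1 cells and 1562 in MonoMac-1, against 4741 in HL60 cells (of which MPO made up 4610) and 46.4 in KG1a, with CEACAM8 and LTF at or near 0 throughout. MPO alone of the 6 was highest in HL60: ELANE (above), CSF3R (43.8 RPKM in THP-1 cells and 60.1 in MonoMac-1, against 22.3 in HL60 cells) and FUT4 (71.5 and 93.6 RPKM in THP-1 and MonoMac-1, against 32.1 in HL60 cells) were higher in both monocytic lines. The part of these markers in the FCAR result was not tested.

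**Figure D2:**
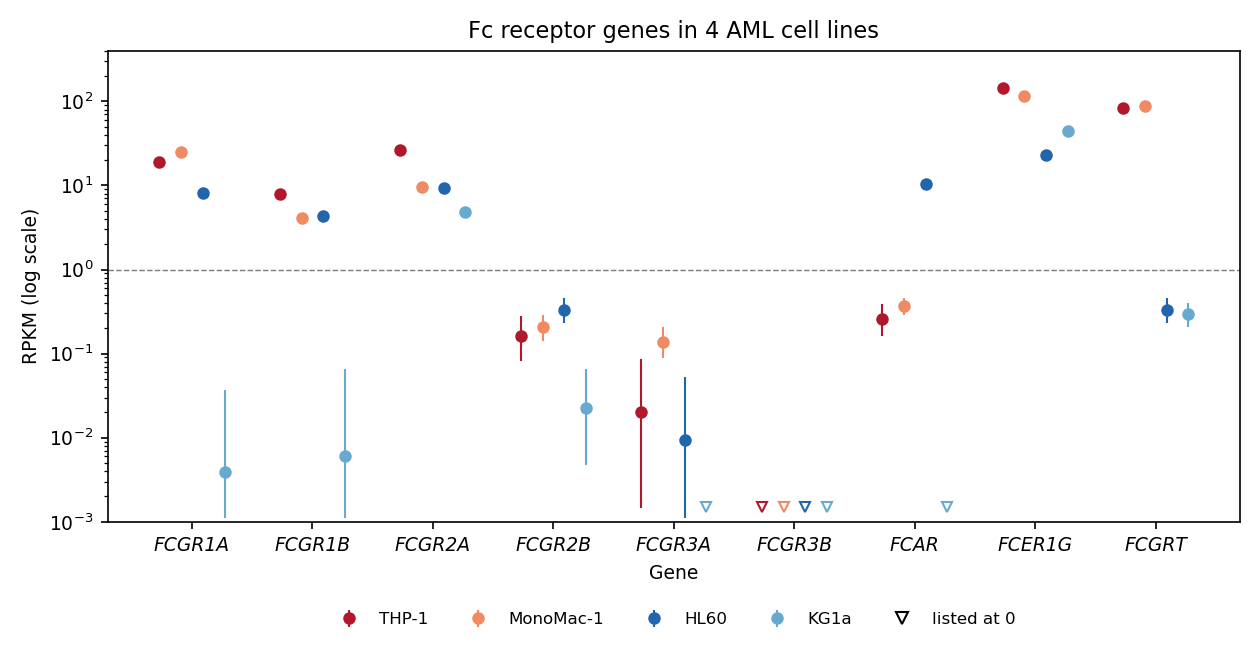
RPKM (log axis) of the 9 Fc receptor genes in each line. Points are single libraries, vertical lines are 95% counting intervals (cut off at the bottom of the axis), open triangles mark genes listed at 0 and the dashed line is 1 RPKM. FCGRT stood at 83.6 RPKM in THP-1 cells and 87.4 in MonoMac-1 against 0.333 in HL60 cells and 0.293 in KG1a, whereas FCAR was high in HL60 cells (10.4 RPKM).

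FCER1G encodes the common gamma chain, an ITAM adaptor that CD64, CD16A and CD89 pair with for signalling. The gene (chromosome 1, 161185087 to 161189038) was the most abundant member in THP-1 cells, MonoMac-1, HL60 and KG1a alike. It stood at 146 RPKM in THP-1 cells (141 to 151) and 115 in MonoMac-1 (112 to 118), against 23.0 in HL60 cells (21.3 to 24.8) and 44.1 in KG1a (41.9 to 46.3). None of these intervals overlap, and the lowest line was HL60, whereas KG1a was lowest for the other 5 measured members (for FCGRT within counting error of HL60). THP-1 was 6.34 times HL60 and 3.31 times KG1a. In KG1a the adaptor was thus present while FCGR1A lay under the floor and FCAR and FCGR3A were listed at 0. Per length, FCER1G exceeded FCGR1A by 7.70 times in THP-1 cells, 4.61 times in MonoMac-1 and 2.83 times in HL60 cells.

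FCGRT, the neonatal Fc receptor (chromosome 19, 50015536 to 50029685), separated the monocytic lines from the others most widely among the 9 genes. It stood at 83.6 RPKM in THP-1 cells and 87.4 in MonoMac-1, against 0.333 in HL60 cells and 0.293 in KG1a, so the pairs lie far apart. THP-1 was 251 times HL60 and 286 times KG1a, and MonoMac-1 was 263 times HL60 and 299 times KG1a. The low values rested on 34.4 fragments in HL60 cells (0.231 to 0.464 RPKM) and 37.5 in KG1a (0.207 to 0.403), which overlap. THP-1 (81.5 to 85.8) and MonoMac-1 (86.0 to 88.9) differed by 1.05 times. Its partner chain B2M was abundant everywhere, at 1032 RPKM in THP-1 cells and 1950 in MonoMac-1, against 1347 in HL60 cells and 1505 in KG1a. B2M exceeded FCGRT by 12.3 times in THP-1 cells (12.0 to 12.7) and 22.3 times in MonoMac-1 (21.9 to 22.7), against 4051 times in HL60 cells and 5139 times in KG1a. RCN3, the next entry to the right at a distance of 1190 bases, was at 2.76 RPKM in THP-1 cells and 3.36 in MonoMac-1, against 0.332 in HL60 cells and 0.379 in KG1a. It stood higher in the same lines as FCGRT at a far lower level, and whether reads of FCGRT were counted there was not tested.

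The monocytic pair was set against the HL60 and KG1a pair, the contrast that the series title implies. Both MLL-AF9 lines are monocytic and the other lines are not, so fusion and lineage cannot be told apart. FCGRT was at least 4 times higher in both monocytic lines than in both others (on RPKM + 1), as were 1.39% of all measured genes, and 0 of the 6 measured members were lower by that rule, against 0.331% of all. By any margin, FCGR1A, FCGR2A, FCER1G and FCGRT were higher in both monocytic lines (4 of 6, against 22.1% of all measured genes), 0 were lower (19.6% of all), and FCGR1B and FCAR overlapped. For FCGR2A that margin was 9.53 against 9.33 RPKM, within counting error. The remaining 3 members, FCGR2B, FCGR3A and FCGR3B, were under 1 RPKM and were not tested.

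In limma, which was fitted on log2(RPKM + 1) over all measured genes with the line as the unit, differences are the monocytic mean minus that of HL60 and KG1a. FCGRT differed by 6.04 on the log2 scale (SE 0.37, adjusted p = 0.0724, equal to the lowest over all genes). FCER1G differed by 1.99 (SE 0.44, adjusted p = 0.350) and FCGR1A by 2.91 (SE 1.09, adjusted p = 0.569). FCGR1B differed by 1.54 (SE 0.92, adjusted p = 0.729), FCGR2A by 1.13 (SE 0.63, adjusted p = 0.715) and FCAR by -1.37 (SE 1.21, adjusted p = 0.770). After Benjamini-Hochberg adjustment by limma, 0 members and 0 of all genes passed 0.05. At an unadjusted p under 0.05 there were 3 members (FCGR1A, FCER1G and FCGRT), all higher in the monocytic lines, where 5.91% of all genes were higher and 2.64% lower. With 2 lines on each side, these p-values measure the spread between different lines. When a gene had to reach 5 RPKM somewhere to be kept, FCGRT passed in limma (6.04, SE 0.36, adjusted p = 0.0277).

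**Figure D3:**
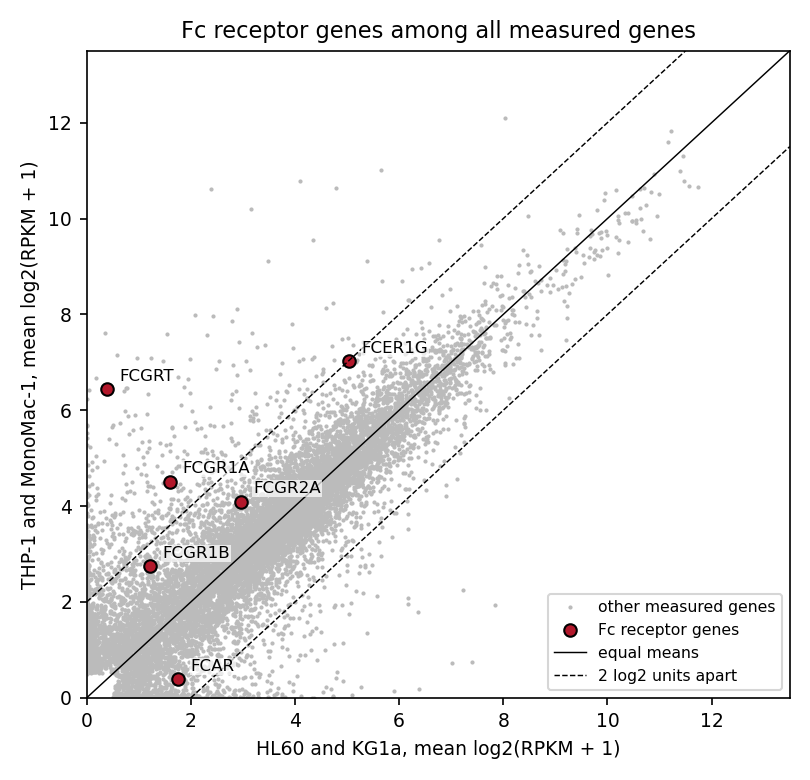
Mean log2(RPKM + 1) of THP-1 and MonoMac-1 (vertical axis) against that of HL60 and KG1a (horizontal axis) for each measured gene. The 6 measured Fc receptor genes are marked in red, the solid line marks equal means and the dashed lines a difference of 2 log2 units. FCGRT lies at 6.43 against 0.39 and FCER1G at 7.03 against 5.04, while FCAR lies below the line of equal means at 0.39 against 1.76.

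Which members met the 4-fold rule depended on the line set against the monocytic pair. Without HL60, FCGR1A and FCGR1B met it beside FCGRT (560 genes in all did). Without KG1a, FCER1G met it beside FCGRT (317 genes in all) and FCAR was lower by that rule (116 genes in all). FCGRT met it in each of these and also without THP-1 or MonoMac-1.

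Lines of the same pair were also set against each other, among genes of at least 1 RPKM in either. Between THP-1 and MonoMac-1, 0 of the 5 members tested (FCAR was too low) were 4 times apart on RPKM + 1 (2.18% of all genes were higher in THP-1 by that rule and 2.44% lower). Between HL60 and KG1a, 3 of 5 members (FCGRT was too low) were at least 4 times higher in HL60 cells, where 4.5% of all genes were, and 0 were lower (6.8% of all). These were FCGR1A, FCGR1B and FCAR. Reads may be shared between the copies FCGR1A and FCGR1B, so they may not be separate results in this count or the next. KG1a stood at least 4 times below each of the other 3 lines for FCGR1A and FCGR1B, 2 of the 6 measured members, against 2.13% of all genes. By the same rule 0 members stood below each other line in THP-1 cells (0.216% of all genes), MonoMac-1 (0.185%) or HL60 (0.57%), and 0 stood above each other line in THP-1 cells (1.13%), MonoMac-1 (1.06%) or KG1a (2.82%).

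Of the other Fc and immunoglobulin receptors, 14 of 17 stayed under 1 RPKM in every line, as did 8889 of all 21865 symbols. Among the 14 were both other chains of the mast cell IgE receptor, which FCER1G completes: FCER1A did not exceed 0.0871 RPKM and MS4A2 did not exceed 0.413 RPKM (both in HL60). FCER2, the low-affinity IgE receptor CD23, stood at 1.28 RPKM in THP-1 cells and 40.2 in MonoMac-1, against 1.76 in HL60 cells and 0.0101 in KG1a. In MonoMac-1 it was at least 4 times above each other line on RPKM + 1, as were 1.06% of all genes. TRIM21, a cytosolic antibody receptor, stood at 25.7 RPKM in THP-1 cells and 18.9 in MonoMac-1, against 15.2 in HL60 cells and 15.7 in KG1a. None of the 3 measured genes of this list (the third is B2M) met the 4-fold rule, and their median difference was 0.49 on the log2 scale (0.02 over all measured genes).

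Of the other ITAM adaptors, TYROBP (DAP12) came closest to FCER1G in the monocytic lines and parted from it in KG1a. TYROBP stood at 73.5 RPKM in THP-1 cells and 203 in MonoMac-1, against 29.2 in HL60 cells and 0.619 in KG1a. FCER1G was 1.98 times TYROBP in THP-1 cells, 0.568 times in MonoMac-1, 0.787 times in HL60 cells and 71.2 times in KG1a (46.9 to 108). CD247, the zeta chain of T and NK cell receptors, stood at 0.487 RPKM in THP-1 cells and 0.477 in MonoMac-1, against 1.46 in HL60 cells and 56.1 in KG1a. HCST (DAP10), which carries no ITAM but signals beside these chains, stood at 12.7 RPKM in THP-1 cells and 28.5 in MonoMac-1, against 59.0 in HL60 cells and 140 in KG1a. Of the 6 adaptors 0 met the 4-fold rule, 1 was higher and 3 were lower in both monocytic lines by any margin (22.1% and 19.6% of all measured genes were), and the median difference was -1.62.

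Among 18 other receptors that pair with FCER1G or TYROBP, 7 were measured, 0 met the 4-fold rule, 4 were higher in both monocytic lines by any margin and 0 were lower, beside 22.1% and 19.6% of all measured genes (median difference 1.56). LILRA2, an activating receptor that uses FCER1G, stood at 16.3 RPKM in THP-1 cells and 11 in MonoMac-1, against 7.41 in HL60 cells and 0.0233 in KG1a. SIRPB1, which uses TYROBP, stood at 10.6 and 24.3 RPKM in THP-1 and MonoMac-1, against 5.35 in HL60 cells and 0.0951 in KG1a. TREM2, a lipid-sensing receptor of macrophages, stood at 45.4 RPKM in THP-1 cells and 1.35 in MonoMac-1, against 0.0312 in KG1a, and was listed at 0 in HL60 cells.

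Of the downstream genes of ITAM signalling, all 32 kinases and signal proteins of the list were measured. By the 4-fold rule 0 were apart, while by any margin 9 were higher and 3 lower in both monocytic lines (22.1% and 19.6% of all), with a median difference of 0.46. Highest by mean log2(RPKM + 1) over the 4 lines, though not in each line, were RAC2, a GTPase of phagocytes (252 RPKM in THP-1 cells and 292 in MonoMac-1, against 267 in HL60 cells and 201 in KG1a), GRB2 and LAT2, both adaptors. LAT2 stood at 91.4 RPKM in THP-1 cells and 106 in MonoMac-1, against 161 in HL60 cells and 82.4 in KG1a. GRB2 stood at 180 RPKM in THP-1 cells and 130 in MonoMac-1, against 83.1 in HL60 cells and 65.1 in KG1a. KG1a was at least 4 times below each other line for 6 of the 32, where 2.13% of all genes were, and above each for 2 (2.82% of all). Among them were FGR and FYN, which are Src-family kinases, and BTK, PIK3CD and PRKCD. These genes were named after their values were seen. SYK itself, named likewise, stood at 81.9 RPKM in THP-1 cells and 59.2 in MonoMac-1, against 64.9 in HL60 cells and 86.2 in KG1a.

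Inhibitory phosphatases and adaptors gave 0 of 12 by the 4-fold rule, 5 higher and 2 lower by any margin (22.1% and 19.6% of all), and a median difference of 0.88. INPP5D, which encodes SHIP1, the lipid phosphatase recruited by FCGR2B, stood at 76.2 RPKM in THP-1 cells and 55.3 in MonoMac-1, against 50.1 in HL60 cells and 29.4 in KG1a. PTPN6, which encodes the tyrosine phosphatase SHP-1, stood at 69.9 and 254 RPKM in THP-1 and MonoMac-1, against 142 in HL60 cells and 1.21 in KG1a. CSK, which restrains Src-family kinases, stood at 71.8 RPKM in THP-1 cells and 77.0 in MonoMac-1, against 78.3 in HL60 cells and 103 in KG1a. KG1a was at least 4 times below each other line for 4 of the 12 (2.13% of all genes) and above each for 1 (2.82%).

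Of 10 transcription factors known to act on myeloid Fc receptor genes, 1 met the 4-fold rule (IRF8), as 1.39% of all genes did, and 3 were higher by any margin and 0 lower, beside 22.1% and 19.6% of all (median difference 0.08). IRF8 stood at 231 RPKM in THP-1 cells and 163 in MonoMac-1, against 0.599 in HL60 cells and 0.0215 in KG1a. SPI1, which encodes PU.1, stood at 98.9 and 168 RPKM in THP-1 and MonoMac-1, against 117 in HL60 cells and 1.41 in KG1a. CEBPA, a factor of the granulocyte and monocyte lineages, stood at 185 and 159 RPKM in THP-1 and MonoMac-1, against 105 in HL60 cells and 13.7 in KG1a. KG1a was at least 4 times below each other line for 3 of the 10 (SPI1, CEBPA and CEBPE), where 2.13% of all genes were. FCGR1A and FCGR1B also met that rule, while IRF8 and FCGRT were low in both HL60 and KG1a. Any part of these factors in the levels of the receptor genes was not tested.

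**Figure D4:**
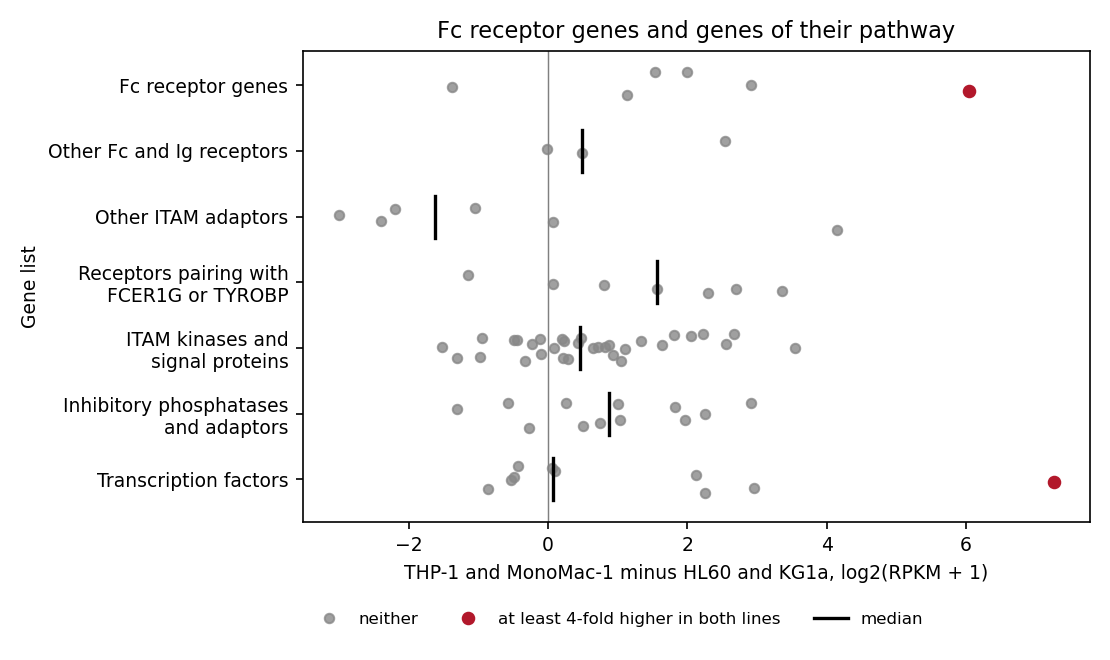
Differences of mean log2(RPKM + 1), THP-1 and MonoMac-1 minus HL60 and KG1a, for the measured genes of each list (rows, points spread vertically for clarity). Red points are genes at least 4-fold higher in both monocytic lines (FCGRT at 6.04 and IRF8 at 7.26), grey points met neither direction of the rule and black bars are list medians, not drawn for the Fc receptor genes.

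Genes with the most similar pattern over the 4 lines were sought among 12975 other measured genes. The 3 named for each member had the smallest gap to it in log2(RPKM + 1), taking for each gene the widest gap in any line (given in parentheses). For FCGRT these were BARX1 (0.41), AGT (0.49) and HLA-DRB1 (0.54). For FCER1G they were CDKN2C (0.29), GPAA1 (0.39) and NCSTN (0.48), and for FCGR1A they were BIK (0.31), HTATIP2 (0.33) and STAC3 (0.39). For FCGR2A they were FAM54A, INSR and FBXO28 (0.39 each), and for FCGR1B LOC100294145 (0.31), KLF7 (0.34) and BAG3 (0.34). For FCAR they were CLEC5A (0.26), NR2F2 (0.38) and BHLHE41 (0.41). CLEC5A, a TYROBP-coupled receptor of myeloid cells that also stands in the list of paired receptors, stood at 0.511 RPKM in THP-1 cells and 0.534 in MonoMac-1, against 9.76 in HL60 cells and 0.0630 in KG1a.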

How the data were processed

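The authors deposited 1 table per line with 21893 entries, each giving a symbol, hg19 coordinates, an RPKM value and a whole-number signal. The authors' RPKM equals that signal divided by a gene length and 1 library total. The deposited signal has no stated unit and was read from its values as the sum of sequenced bases on the gene (reads of about 100 bases). CASAVA 1.8.2 and hg19 are named per the submitters' processing notes; aligner, annotation and strandedness were not given in the sources used here. Neither value is a count of reads, so no count model was used.

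Entries were joined by coordinates and symbol, and the entry with the highest mean was kept for 28 repeated symbols (none a member). Tests used log2(RPKM + 1), which understates the change of weakly expressed genes, over genes that reached 1 RPKM somewhere, with limma 3.58.1 in R 4.3.3 (lmFit, eBayes with trend, two-sided, Benjamini-Hochberg, threshold 0.05, 2 residual degrees of freedom). Scripts ran in Python 3.11.15. The fit was also run on simulated data with the same noise for every gene. That checks the code and not the performance of the fit on these lines. The 4-fold rule asks that the lower value of a pair of lines, as RPKM + 1, be at least 4 times the higher value of the other pair. The members, lists and motifs were chosen with earlier results of these data known. All members were named; of each other list, the genes that met the 4-fold rule and the 3 with the highest mean, and for each measured member the 3 genes of most similar pattern. Most other genes of the lists enter the counts only, and some items are not reported here.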

Additional observations from a re-analysis of the deposited data

How the results depend on the processing

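No paired analysis was possible because each line has 1 library and the labels pair none. The limma differences of the 6 measured members kept their sign under the alternatives run, and FCGRT ranged from 5.88 to 7.70 on the log2 scale with limma adjusted p between 0.0277 and 0.804. The others moved more: leaving out 1 line at a time gave 1.32 to 4.5 for FCGR1A (2.91 as reported), 0.33 to 2.74 for FCGR1B (1.54), 0.43 to 1.83 for FCGR2A (1.13), 1.54 to 2.44 for FCER1G (1.99) and -3.12 to -1.31 for FCAR (-1.37), against 6.01 to 6.07 for FCGRT. With a minimum of 5 RPKM in place of 1, limma tested fewer genes and called 11, among them FCGRT (6.04). FCAR could not be fitted without HL60, where it was under 1 RPKM in the other lines.

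By the 4-fold rule, 181 genes were higher and 43 lower in the monocytic lines. A pseudocount of 0.1 gave 435 higher and 141 lower, a rule of 2 times gave 568 and 205, and a rule of 8 times gave 66 and 11. Leaving out 1 line at a time gave 317 to 560 higher and 98 to 486 lower. Of the members, 1 was higher, 3 at 2 times (FCGR1A, FCER1G and FCGRT) and 1 to 3 with 1 line left out, and 0 to 1 lower with 1 line left out. With a pseudocount of 0.1, an alternative chosen after seeing the data, THP-1 was 4-fold higher than MonoMac-1 for 634 genes (263 as reported) and lower for 583 (294), and HL60 than KG1a higher for 911 (532) and lower for 1419 (805). With genes of at least 5 RPKM, FCGR1B left the members that were higher in HL60 than in KG1a. It stood at 4.35 RPKM in HL60 cells and 0.00606 in KG1a, under that minimum, so it was no longer counted. A pseudocount of 0.1 gives weakly expressed genes larger folds than a pseudocount of 1 does, with the RPKM values unchanged. Adding FCGR1C to FCGR1A and FCGR1B, also chosen after seeing the data, gave 11.1 RPKM in THP-1 cells and 12.7 in MonoMac-1, against 5.19 in HL60 cells.

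Values under about 3 fragments, among them FCGR1A and FCGR1B in KG1a and FCGR3A in THP-1 and HL60, are not separable from 0, and no line has a second library.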
